A study of Mus musculus with 18 samples.

Results

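The BMP signalling and ID genes described here were 9 genes of the 51467 in the count table. They comprised the ligand Bmp4, the receptors Bmpr1a and Bmpr2, the signal-transducing SMADs Smad1 and Smad5, the inhibitory SMAD Smad7, and the target genes Id1, Id2 and Id3. The members were chosen by name as known parts of one pathway, and their symbols were matched to the identifiers of the table. Of these, 8 genes passed the filter on low counts (at least 3 CPM, the count scaled to a common library size, in at least 3 libraries) and were tested among 12705 genes. Bmp4 did not pass and is given by its values.

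BMP ligands bind paired type I and type II receptor kinases, which phosphorylate SMAD1 and SMAD5 so that they enter the nucleus with SMAD4 and activate target genes. Among the best known direct targets are the Id genes, whose products lack a DNA-binding region and hold E proteins and other basic helix-loop-helix factors in inactive dimers. In mouse embryonic stem cells (ESCs), BMP with LIF can sustain self-renewal in part through Id proteins. SMAD7 is induced by the pathway and blocks it at the receptor.

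The data came from polysome profiling of V6.5 mouse ESCs, a cell line, in which mRNAs were separated by the number of ribosomes they carried. The cells were either wild-type (WT) or Ddx6 knockout (KO). DDX6 is an RNA helicase that acts in translational repression and mRNA decay. From each of 3 gradients per genotype, the monosome, low polysome (2 to 4 ribosomes) and high polysome (4 or more ribosomes) were collected, which gave 18 libraries in 6 groups of 3. Both genotypes were grown in fetal bovine serum with LIF and the 2i inhibitors PD0325901 and CHIR99021, and both were treated with cycloheximide at 100 ug/ml for 2 minutes to hold ribosomes on the mRNA. KO gradient 1 was clone 1 and KO gradients 2 and 3 were clone 2, so that clone 1 was measured once per fraction. The clones were made with Cas9, grown from cells sorted at clonal density, and carry an insertion or a deletion at the start of one Ddx6 exon. Nothing in the labels says that the WT gradients came from separate cultures, so the p-values measure the spread between these samples, which may be technical.

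Library totals ran from 2543617 to 11474550 counts, and the 3 WT monosome libraries were the shallowest. Ddx6 itself averaged 153 ± 8.78 CPM in the WT monosome and 33.9 ± 20.9 in the KO monosome (SD, n = 3 each), and clone 1 kept more of it (55.3 to 82.7 CPM over the fractions) than clone 2 (9.68 to 26.7). All 10 ESC markers passed the filter, which is applied to the libraries of both genotypes together. Their summed levels were 3120.5 to 6836 CPM in WT and 3249 to 5109 CPM in KO. Of 5 markers of formative or primed epiblast, 4 passed, and their sum was 110 to 158 CPM in WT libraries and 34.9 to 83.0 CPM in KO libraries, with Fgf5 at 0 throughout. None of 6 endoderm markers passed, with sums of at most 9.24 CPM. The sums were also low for mesoderm (2 of 6 passed, 5.88 to 10.2 CPM in WT and 8.77 to 18.8 in KO), neural ectoderm (1 of 4, 26.5 to 42.9 and 25.2 to 68.8) and fibroblast feeder cells (2 of 6, 3.95 to 10.4 and 5.79 to 10.97, with Col3a1 at 0). The part of these shifts in the results on the BMP and Id genes was not tested. In bulk fractions, fewer cells with an mRNA and less mRNA per cell cannot be told apart.

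Sites for microRNAs and AU-rich motifs were searched in the 3′ UTRs. The study places DDX6 in the translational repression of microRNA targets. It used AU-rich motifs only as a sequence feature in a regression of mRNA stability, and a link of DDX6 to them was not tested here. The ESCC (ESC-specific cell cycle) microRNAs share one seed (bases 2 to 8, in capitals), shown here with the RefSeq mature sequences on GRCm38.p6. The first 3 are encoded on chromosome 7 and the last 2 on chromosome 3.
mmu-miR-291a-3p: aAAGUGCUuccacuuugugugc
mmu-miR-294-3p: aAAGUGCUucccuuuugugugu
mmu-miR-295-3p: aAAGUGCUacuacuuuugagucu
mmu-miR-302b-3p: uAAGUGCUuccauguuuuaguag
mmu-miR-302d-3p: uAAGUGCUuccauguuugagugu

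Smad5 was the only one of the 9 genes with a match to this seed in its annotated 3′ UTR. The transcribed strand was searched for the 8mer AGCACTTA and for the 7mers AGCACTT and GCACTTA, both of which lie within the 8mer. Among 11744 tested genes with an annotated 3′ UTR, 3.51% held the 8mer, 17.4% held AGCACTT and 8.06% held GCACTTA. These shares are not corrected for 3′ UTR length, and that of Smad5 (4899 nt) was longer than 95.4% of them. Whether its matches are used was not measured. The 8mer of Smad5 lay at chr13:56741475-56741504 and the separate 7mer at chr13:56740747-56740776 (GRCm38, plus strand, windows of 30 bases in the 3′ UTR with the match in capitals).
Smad5 8mer: gtcagtgctcgAGCACTTAgcaggcatcga
Smad5 7mer: acttccctggcAGCACTTgggtccctgtca

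The AU-rich core TATTTAT occurred in 29.8% of the same 3′ UTRs. Among the BMP and Id genes, Bmpr2 held 4 matches, Bmp4 and Id2 held 2 each, Smad5 and Smad7 held 1 each, and Bmpr1a, Smad1, Id1 and Id3 held none. The number of matches per gene is not corrected for 3′ UTR length, which ran from 339 nt for Bmp4 to 8529 nt for Bmpr2. Of the tested genes with a match, Id2 fell, Smad5 and Smad7 rose and Bmpr2 did not pass in the mean of the fractions described below. Of those without a match, Id1 and Id3 rose, and Bmpr1a and Smad1 did not pass. Whether matches go with the changes was not tested. The 2 matches in Id2 are printed, chosen after these changes were seen. They lay at chr12:25094354-25094383 and chr12:25094105-25094134 (GRCm38, minus strand, 3′ UTR), and the match is in capitals. These matches are letters in an annotated transcript, and whether either is used was not measured.
Id2 first match: tgtgataccgtTATTTATgagagactttca
Id2 second match: tgctgtgtataTATTTATatataaatatat

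The first question was whether the abundance of these mRNAs differed between Ddx6 KO and WT cells within each fraction. Id1 and Id3 were about 3 to 4 times as abundant in KO cells in the mean of the fractions, while Id2 fell to 0.585 of its WT level. Smad7 rose 1.53-fold and Smad5 rose 1.35-fold, and Bmpr1a, Bmpr2 and Smad1 did not pass the test in that mean. The scaling sets the typical gene to no change, so every change is read against the bulk of the genes in those libraries. In the mean of the 3 fractions, 4 of the 8 genes tested rose and 1 fell, where 30.6% of all genes tested rose and 31.5% fell (limma, Benjamini-Hochberg adjusted p under 0.05). The fit treats the 3 fractions of a gradient as independent libraries. Intervals of this mean may therefore be too narrow and its p-values too small. With the gradient as a block with an estimated correlation, the counts of the 8 genes in the mean were also 4 and 1. In the monosome, 2 rose and 0 fell (18.6% and 20.1% of all genes). No gene among the 8 fell there at an unadjusted p under 0.05, or by edgeR or DESeq2. For the low polysome these counts were 4 and 1 (23.4% and 24.3%), and for the high polysome 4 and 2 (25.3% and 21.1%). Since 38.6% to 62.2% of all genes were called in one direction or the other in these comparisons, the counts are near the background, and the sizes of the changes carry the description. The median log2 change of the 8 genes was 0.26 in the mean of the fractions, beside -0.02 over all genes. Whether the libraries of the genotypes overlap is given below as a description only. The share of all genes without overlap was not counted.

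**Figure D1:**
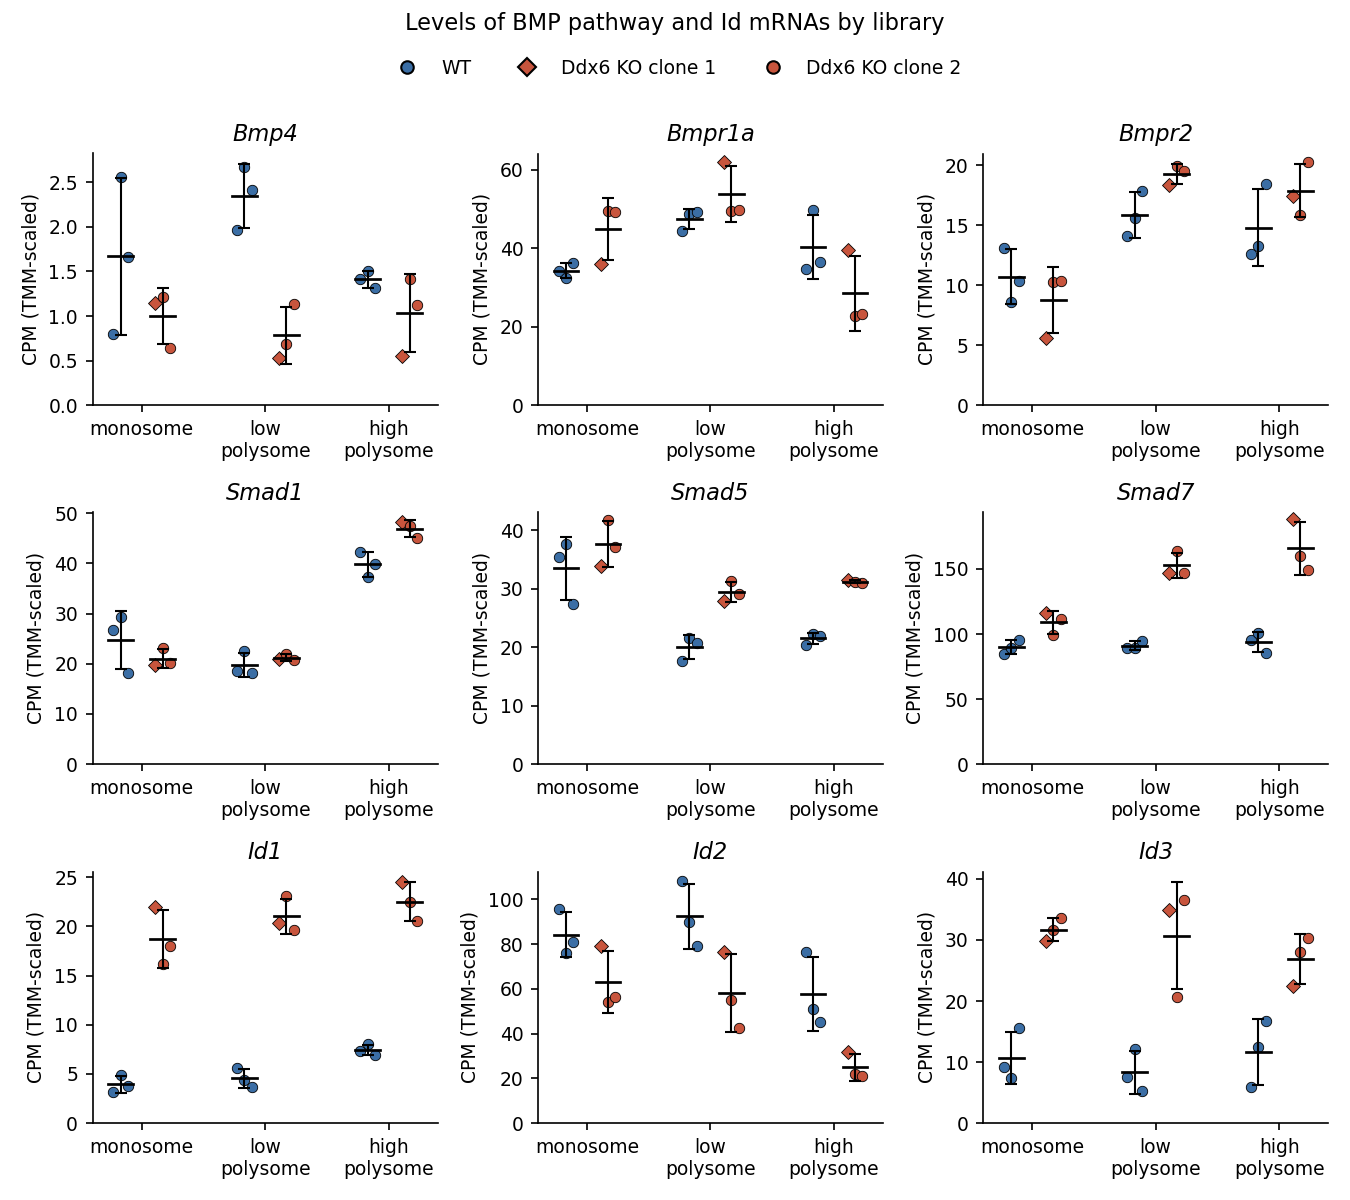
TMM-scaled CPM of each gene in every library, by fraction (horizontal axis), with WT in blue, KO clone 1 as red diamonds and KO clone 2 as red circles. Lines and bars are the mean and SD of 3 libraries. All 9 KO libraries lie above all 9 WT libraries for Id1 and for Id3, and Id2 is lower in KO in the polysome fractions.

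Gene positions are on GRCm38. Id1 (ENSMUSG00000042745.9, chr2:152736251-152737410, plus strand), an inhibitor of basic helix-loop-helix factors and a direct BMP-SMAD target, had the largest change of the group. In the WT monosome its levels were 3.19, 4.88 and 3.73 CPM, and in the KO monosome they were 21.9, 16.2 and 18 CPM. Low polysome levels were 5.64, 4.37 and 3.68 CPM in WT and 20.3, 23.1 and 19.6 CPM in KO. High polysome levels were 7.32, 8.0 and 6.97 CPM in WT and 24.5, 22.5 and 20.6 CPM in KO. The genotypes did not overlap in any fraction, and the lowest KO library (16.2 CPM) was above the highest WT library (8.0 CPM). From monosome to high polysome, the log2 changes were 2.18 ± 0.27, 2.19 ± 0.21 and 1.59 ± 0.17 (SE), with adjusted p = 3.1e-06, 6.0e-08 and 3.1e-07 (limma). In the mean of the fractions the increase was 3.97-fold (95% interval 3.31 to 4.77, adjusted p = 4.2e-11, limma). Both clones showed it, with clone 1 at 420% and clone 2 at 377% of the WT mean over the fractions. The WT monosome values rest on 8 to 21 counts per library.

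Id3 (ENSMUSG00000007872.3, chr4:136143497-136145755, plus strand), a second Id gene with a similar role, followed Id1. Its levels in the monosome were 9.16, 7.43 and 15.5 CPM in WT and 29.9, 31.5 and 33.6 CPM in KO. Low polysome levels were 7.60, 12.1 and 5.20 CPM in WT and 34.9, 20.6 and 36.6 CPM in KO. High polysome levels were 5.90, 12.5 and 16.7 CPM in WT and 22.4, 28.0 and 30.3 CPM in KO. WT libraries varied more than for Id1, yet each KO library was above each WT library, with a gap from 16.7 to 20.6 CPM. Its log2 changes in the same order were 1.58 ± 0.37, 1.95 ± 0.33 and 1.26 ± 0.30 (SE), with adjusted p = 0.0023, 7.5e-05 and 0.0017 (limma). The mean increase was 3.03-fold (95% interval 2.29 to 4.01). Without WT gradient 1, which held the lowest WT value of the high polysome, the change there was 0.82 (adjusted p = 0.034, limma). The increase of Id1 and of Id3 kept its direction and its side of the threshold in each fraction under every alternative fit run, all scalings included.

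Id2 (ENSMUSG00000020644.9, chr12:25093799-25097140, minus strand), the third Id gene and the most highly counted of them, went the other way. In the monosome its levels were 95.6, 76.2 and 80.8 CPM in WT and 79.0, 54.1 and 56.2 CPM in KO, so that the clone 1 library lay within the WT range. Low polysome levels were 108, 90.0 and 79.3 CPM in WT and 76.7, 55.0 and 42.4 CPM in KO. High polysome levels were 76.4, 50.8 and 45.4 CPM in WT and 31.6, 21.9 and 21.2 CPM in KO. The genotypes did not overlap in either polysome fraction, and clone 1 was the highest KO library in every fraction. The log2 change was -0.42 ± 0.22 in the monosome (SE, adjusted p = 0.15, limma), which did not pass. It was -0.71 ± 0.21 in the low polysome (adjusted p = 0.0093, limma) and -1.19 ± 0.23 in the high polysome (adjusted p = 0.00031, limma). Without KO gradient 3 the low polysome change was -0.53 (adjusted p = 0.076, limma) and was no longer called. Without KO gradient 1, the only clone 1 gradient, the monosome change was -0.59 (adjusted p = 0.030, limma) and was called. Clone 1 stood at 80.0% and clone 2 at 53.6% of the WT mean over the fractions.

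Id4, the remaining Id gene and no member of the group, averaged 17.2 ± 2.91 CPM in the WT high polysome and 9.88 ± 3.46 in the KO high polysome (SD, n = 3 each). It fell in that fraction (log2 change -0.84 ± 0.30 SE, adjusted p = 0.027, limma) and did not pass in the mean of the fractions (-0.25 ± 0.22). Of the 4 Id genes, 2 rose and 1 fell in the mean of the fractions, where 30.6% and 31.5% of all genes tested did. The share called was 75%, beside 62.2% of all genes. The directions of Id1, Id2 and Id3 did not flip under any scaling.

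**Figure D2:**
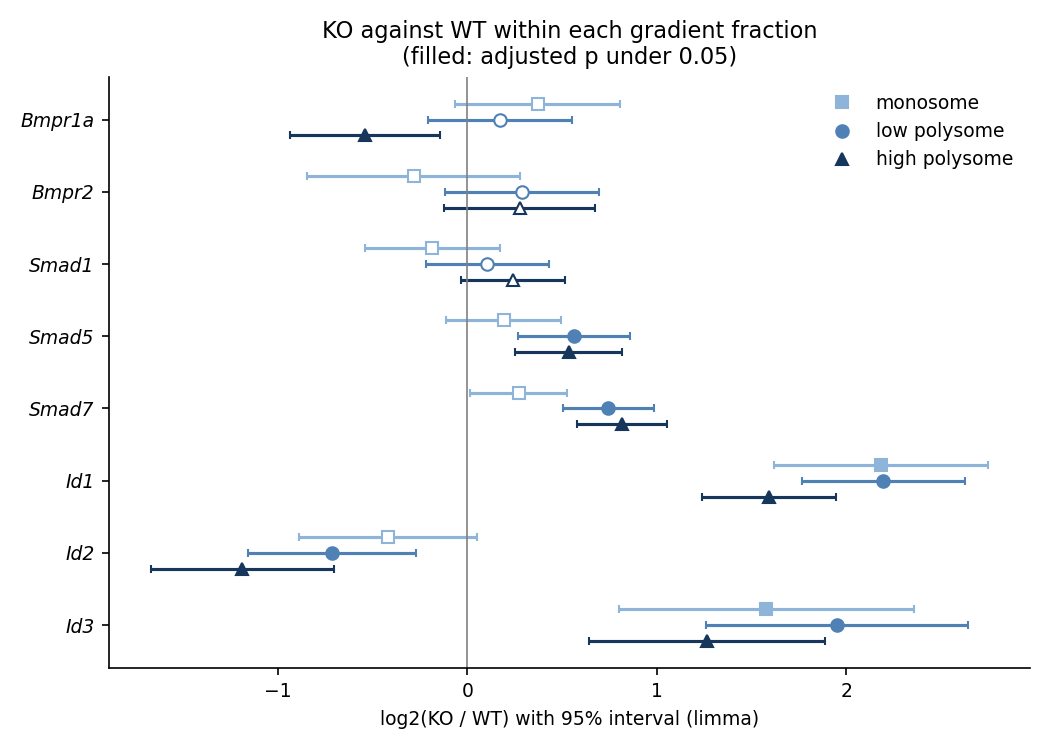
Log2 change of KO against WT for each of the 8 genes tested (vertical axis) in each of the 3 fractions, with 95% intervals from limma. Filled symbols passed at an adjusted p under 0.05. Id1 and Id3 lie between 1.26 and 2.19 in every fraction, and Id2 runs from -0.42 in the monosome to -1.19 in the high polysome.

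Smad7 (ENSMUSG00000025880.11), the inhibitory SMAD that recruits ubiquitin ligases to the receptors, was the most highly counted member. In the monosome its levels were 84.8, 89.0 and 95.5 CPM in WT and 116, 99.4 and 112 CPM in KO. Low polysome levels were 89.6, 89.0 and 94.8 CPM in WT and 147, 164 and 147 CPM in KO. High polysome levels were 95.6, 101 and 85.2 CPM in WT and 188, 160 and 149 CPM in KO. The genotypes did not overlap in any fraction, and the gap was narrowest in the monosome. The log2 change was 0.74 ± 0.12 in low polysomes and 0.82 ± 0.11 in high polysomes (SE), with adjusted p = 2.8e-05 and 9.2e-06 (limma). In the monosome it was 0.27 ± 0.12 with adjusted p = 0.086 (limma), and it passed there with library size alone as the scaling (0.34, adjusted p = 0.033) or with no filter (0.36, adjusted p = 0.043).

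Smad5 (ENSMUSG00000021540.16, chr13:56703010-56742377, plus strand), a receptor-regulated SMAD that carries the BMP signal to the nucleus and holds the seed matches shown above, also rose in the polysome fractions. In the monosome its levels were 35.4, 37.6 and 27.3 CPM in WT and 33.9, 41.8 and 37.2 CPM in KO, which overlapped. Low polysome levels were 17.6, 21.5 and 20.7 CPM in WT and 28.0, 31.2 and 29.1 CPM in KO. High polysome levels were 20.4, 22.2 and 21.9 CPM in WT and 31.5, 31.1 and 31.0 CPM in KO. The 6 KO polysome libraries were all above the 6 WT polysome libraries. The log2 change was 0.56 ± 0.14 in low polysomes and 0.53 ± 0.14 in high polysomes (SE), with adjusted p = 0.0028 and 0.0030 (limma). In the monosome it was 0.19 ± 0.14 (adjusted p = 0.31, limma). With all libraries thinned to the smallest total, the high polysome change was 0.42 (adjusted p = 0.057, limma) and was no longer called.

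Smad1 (ENSMUSG00000031681.16, chr8:79338395-79399518, minus strand), its close relative with the same function, showed no change of this size. Its levels in the high polysome were 42.2, 37.3 and 39.8 CPM in WT and 48.2, 47.5 and 45.0 CPM in KO. The KO libraries were the higher ones in that fraction, but the log2 change of 0.24 ± 0.13 (SE) did not pass (adjusted p = 0.14, limma). In the mean of the fractions it was 0.05, with a 95% interval from -0.13 to 0.24, beside 0.26 to 0.60 for Smad5. The difference between these 2 genes was not tested.

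The type I receptor Bmpr1a (ENSMUSG00000021796.14, chr14:34410734-34503341, minus strand) differed between genotypes in the high polysome. Its levels there were 34.8, 49.6 and 36.4 CPM in WT and 39.4, 22.6 and 23.3 CPM in KO. The clone 1 library lay within the WT range and both clone 2 libraries lay below it. In the monosome the order was the opposite for clone 2, with 34.2, 32.3 and 36.3 CPM in WT and 35.9, 49.6 and 49.3 CPM in KO. In the low polysome the levels were 44.4, 48.7 and 49.1 CPM in WT and 62.0, 49.5 and 49.8 CPM in KO. The log2 change was -0.54 ± 0.19 (SE) in the high polysome (adjusted p = 0.025, limma). It was no longer called without WT gradient 2 (-0.38, adjusted p = 0.18), KO gradient 2 (-0.40, adjusted p = 0.14) or KO gradient 3 (-0.44, adjusted p = 0.12), nor at equal depth (-0.44, adjusted p = 0.085, all limma). Without KO gradient 1, Bmpr1a was also called in the monosome, at 0.52 (adjusted p = 0.018, limma). Over the fractions its mean change was 0.00, with a 95% interval from -0.23 to 0.24.

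The type II receptor Bmpr2 (ENSMUSG00000067336.6, chr1:59763400-59879014, plus strand), which phosphorylates the type I receptor, did not pass in any KO against WT comparison. Its group means were 10.7 ± 2.29, 15.9 ± 1.91 and 14.8 ± 3.21 CPM in the WT fractions, from monosome to high polysome (SD, n = 3 each). In KO they were 8.76 ± 2.72, 19.3 ± 0.80 and 17.9 ± 2.22 CPM. The mean log2 change was 0.09, with a 95% interval from -0.17 to 0.36. A short uncharacterised annotation on the same strand, Gm38125, overlaps Bmpr2, and 3 short non-coding RNA annotations overlap Smad5, so reads in the shared stretches were uncertain.

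Bmp4 (ENSMUSG00000021835.14, chr14:46383520-46390669, minus strand), the ligand, was near the detection limit of these libraries. WT libraries held 2, 11 and 8 counts of it in monosomes, 16, 19 and 19 in low polysomes, and 11, 15 and 14 in high polysomes. KO libraries held 9, 10 and 5 counts in monosomes, 4, 5 and 13 in low polysomes, and 5, 13 and 11 in high polysomes. Among low polysome libraries, the 3 KO ones (0.525 to 1.14 CPM) were below the 3 WT ones (1.96 to 2.68 CPM), and the genotypes overlapped in the monosome and the high polysome. In the fit with no filter on low counts, over 27427 genes, the log2 change was -1.47 ± 0.43 in the low polysome (SE, adjusted p = 0.013, limma) and -0.90 ± 0.26 in the mean of the fractions (adjusted p = 0.0076, limma). In that fit, the monosome (-0.68 ± 0.48) and the high polysome (-0.53 ± 0.42) did not pass. Over all its genes, that fit called 3929 lowered in KO in the monosome, beside 2548 of 12705 with the filter. Whether this shift enters the mean for Bmp4 was not tested. A shift of a few counts in 1 library would move these values.

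The second question was how these mRNAs were spread over the gradient within each genotype. In WT cells, Smad1 and Id1 were enriched in the high polysome over the monosome, and Smad5 and Id2 were less abundant there. That made 2 of 8 genes raised and 2 lowered, where 28.9% and 32.2% of all genes tested were raised and lowered. The log2 ratio of high polysome to monosome was 0.73 ± 0.16 for Smad1, 0.87 ± 0.28 for Id1, -0.61 ± 0.15 for Smad5 and -0.58 ± 0.22 for Id2 (SE, adjusted p = 0.00053, 0.012, 0.0014 and 0.031, limma). Id1 was no longer called without WT gradient 3 (0.86, adjusted p = 0.061, limma). Id2 was no longer called without WT gradient 2 (-0.58, adjusted p = 0.11) or 3 (-0.45, adjusted p = 0.18), nor with no filter (-0.45, adjusted p = 0.090, all limma). Bmpr2 missed the threshold at 0.51 (adjusted p = 0.083) and passed in 5 of 17 alternative fits. These were the fit without WT gradient 1 (0.78, adjusted p = 0.035, limma), the fits with no filter (0.63), with only the compared groups (0.55) and with the coding length trend removed in the block fit (0.58), and DESeq2 (0.54, adjusted p = 0.046). Smad1 and Smad5, which code for proteins of the same length, thus stood on opposite sides of the gradient in WT cells.

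In KO cells, Bmpr2, Smad1 and Smad7 were enriched in the high polysome over the monosome, and Bmpr1a and Id2 were less abundant. These were 3 raised and 2 lowered of 8, where 35% and 33.6% of all genes tested were. The log2 ratio was 1.07 ± 0.22 for Bmpr2, 1.16 ± 0.14 for Smad1, 0.60 ± 0.11 for Smad7, -0.69 ± 0.19 for Bmpr1a and -1.35 ± 0.23 for Id2 (SE, adjusted p = 0.00020, 5.4e-07, 0.00010, 0.0031 and 3.3e-05, limma). Bmpr1a was no longer called without KO gradient 2 (-0.48, adjusted p = 0.083) or KO gradient 3 (-0.48, adjusted p = 0.093, both limma).

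The low polysome showed where along the gradient these differences arose. In WT, 1 of the 8 genes was called between low polysome and monosome, namely Smad5 at -0.73 ± 0.15 (SE), where 43.2% of all genes tested were called in either direction. None of the 8 was called raised in that comparison by limma, while Bmpr1a and Bmpr2 had an unadjusted p under 0.05 and Bmpr2 was called by edgeR and by DESeq2. With the gradient as a replicate block, Bmpr2 was called (0.64, adjusted p = 0.034 as a fixed term, and 0.62, adjusted p = 0.043 as an estimated correlation, limma). Without KO gradient 1, which enters that ratio only through the shared spread, Bmpr1a (0.46, adjusted p = 0.018) and Bmpr2 (0.61, adjusted p = 0.035) were both called, and Bmpr2 also without WT gradient 1 (0.81, adjusted p = 0.049, all limma). Between high and low polysome in WT, 3 of 8 were called (62.1% of all genes), with Smad1 at 1.01 ± 0.15, Id1 at 0.71 ± 0.22 and Id2 at -0.72 ± 0.21. Id1 was no longer called there without WT gradient 2 (0.63, adjusted p = 0.075) or 3 (0.61, adjusted p = 0.073), and Id2 not without WT gradient 2 (-0.66, adjusted p = 0.057, all limma).

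In KO, 3 of 8 were called between low polysome and monosome (41.1% of all genes), with Bmpr2 at 1.18 ± 0.22, Smad7 at 0.49 ± 0.11 and Smad5 at -0.35 ± 0.13. The call of Smad5 was the least stable of these, since it was lost without any 1 of the 3 KO gradients (-0.31 to -0.39). Smad7 was lost without KO gradient 2 (0.37, adjusted p = 0.059, limma). Between high and low polysome in KO, 3 of 8 were called (57.5% of all genes), with Smad1 at 1.14 ± 0.14, Bmpr1a at -0.96 ± 0.19 and Id2 at -1.19 ± 0.23. Smad1 was at nearly the same level in the monosome and low polysome of both genotypes (means of 19.8 to 24.7 CPM) and stood higher only in the high polysome (39.8 ± 2.46 in WT and 46.9 ± 1.68 in KO, SD, n = 3 each).

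**Figure D3:**
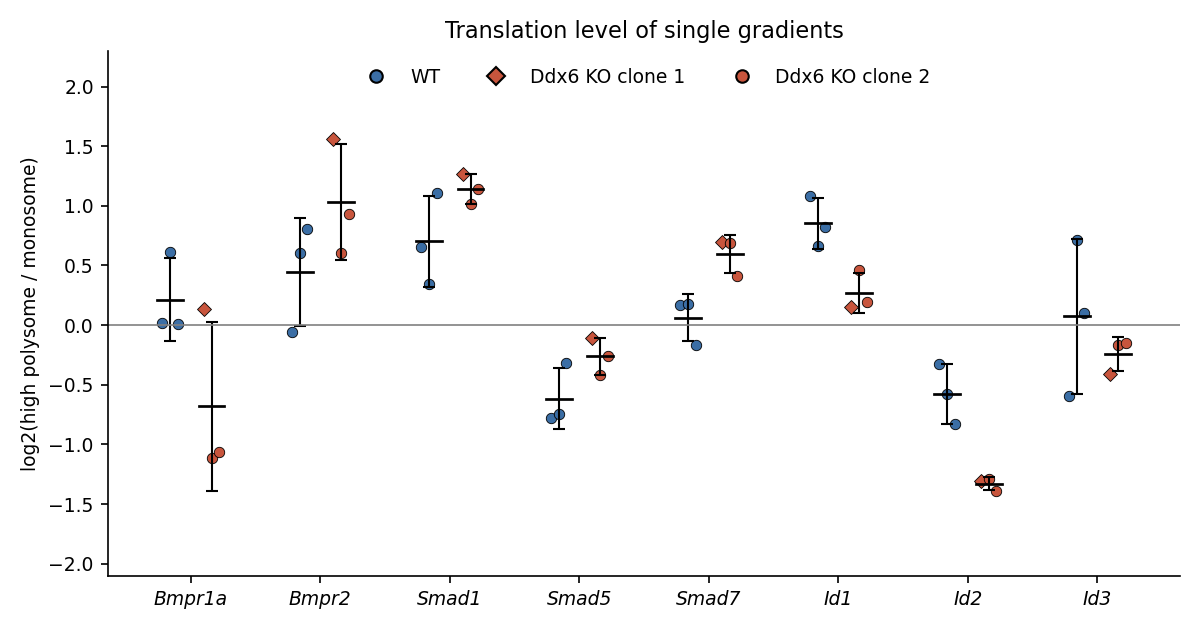
Translation level of the 8 genes tested in each single gradient, as the log2 ratio of high polysome to monosome CPM (TMM-scaled, 0.5 CPM added to both), with WT in blue and KO in red (diamonds for clone 1). Lines and bars are the mean and SD of 3 gradients. The genotypes do not overlap for Smad7, Id1 and Id2, and the clone 1 gradient of Bmpr1a (0.13) lies with the WT gradients. The share of all genes without overlap was not counted.

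The third question was whether loss of DDX6 changed the translation level, the ratio of high polysome to monosome, which was tested as the interaction of genotype and fraction. Smad7 rose and Bmpr1a fell in translation level, and 6 of the 8 genes did not pass. Of all genes tested, 10.7% rose and 7.09% fell, so that 60.1% of the calls were increases, against 51.0% with DESeq2 size factors and 40.3% with library size alone as the scaling. Smad7 had log2 ratios of 0.17, 0.18 and -0.16 in WT and of 0.70, 0.68 and 0.42 in KO, which did not overlap. Its interaction was 0.55 ± 0.17 (SE, adjusted p = 0.030, limma). This call was lost in several fits. It missed the threshold without any 1 gradient other than KO gradient 1 (0.43 to 0.62 over the leave-outs that lost it), with library size alone (0.42, adjusted p = 0.076), with no filter (0.43, adjusted p = 0.11), with only the compared groups (0.45, adjusted p = 0.062) and at equal depth (0.34, adjusted p = 0.24, all limma).

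Bmpr1a had log2 ratios of 0.02, 0.61 and 0.01 in WT, 0.13 in the clone 1 gradient and -1.11 and -1.06 in the clone 2 gradients. The genotypes overlapped through clone 1. The interaction was -0.91 ± 0.28 (SE, adjusted p = 0.032, limma). It was -1.32 without KO gradient 1, and it was no longer called without WT gradient 2 (-0.70, adjusted p = 0.18), WT gradient 3 (-1.03, adjusted p = 0.054), KO gradient 2 (-0.69, adjusted p = 0.15) or KO gradient 3 (-0.73, adjusted p = 0.18), nor at equal depth (-0.77, adjusted p = 0.062, all limma). With a single clone 1 gradient, a difference between clones and a difference between gradients cannot be told apart.

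Id2 had log2 ratios of -0.32, -0.58 and -0.82 in WT and of -1.31, -1.29 and -1.39 in KO, without overlap. Its interaction was -0.77 ± 0.32 (SE, adjusted p = 0.10, limma) and did not pass. With the gradient as a replicate block in the fit, as a fixed term, it was -0.76 and passed (adjusted p = 0.0090, limma), and with the block as an estimated correlation it was -0.77 and did not pass (adjusted p = 0.071, limma). It also passed in DESeq2 (-0.85, adjusted p = 0.048) and with only the compared groups (-0.86, adjusted p = 0.024, limma). Id1 also did not overlap, with ratios of 1.08, 0.66 and 0.82 in WT and 0.16, 0.46 and 0.19 in KO, and its interaction of -0.59 had a 95% interval from -1.26 to 0.07 (adjusted p = 0.20, limma). For Id3 the interaction was -0.31 with an interval from -1.31 to 0.68. For Bmpr2, Smad1 and Smad5 it was 0.56 ± 0.33, 0.43 ± 0.22 and 0.34 ± 0.20 (SE), with adjusted p = 0.25, 0.17 and 0.24 (limma). The interaction of Smad5 had a 95% interval from -0.07 to 0.76, and any part of its seed matches was not tested.

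For the ratio of low polysome to monosome, none of the 8 genes was called (4.71% of all genes were), and Smad7 came nearest at 0.47 ± 0.17 (SE, adjusted p = 0.11, limma). Smad7 was the 1 gene with an unadjusted p under 0.05 there, edgeR called none and DESeq2 called Smad7. In the interaction of high over low polysome none was called either, where 4.42% of all genes were. Bmpr1a (-0.71 ± 0.26) and Id1 (-0.60 ± 0.27) had an unadjusted p under 0.05 there, and neither edgeR nor DESeq2 called any of the 8. Bmpr1a was called without KO gradient 1 (-0.87, adjusted p = 0.023, limma).

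Coding length moved with these ratios and was therefore set beside them. The Id genes code for short proteins, with coding lengths of 507 nt for Id1, 468 nt for Id2 and 360 nt for Id3, and only 3.47% to 8.80% of tested genes were shorter. Bmpr2, at 3117 nt, was longer than 87.2% of them. The trend over 11769 genes with a coding length gave an interaction of -0.48 at the length of Id1, -0.52 at that of Id2 and -0.62 at that of Id3, where -0.59, -0.77 and -0.31 were measured. With the trend removed, the values were -0.06, -0.20 and 0.36, and none was called. The called values of Bmpr1a (-1.0, adjusted p = 0.038) and Smad7 (0.59, adjusted p = 0.039, both limma) lay far from the trend at their lengths (0.14 and 0.01) and passed with it removed. In KO cells the trend of the ratio of high polysome to monosome reached -1.18 at the length of Id3, and with the trend removed Id1 (1.18, adjusted p = 7.8e-07) and Id3 (1.11, adjusted p = 0.00098) were called raised, while Id2 (-0.34, adjusted p = 0.21, all limma) was no longer called lowered. In WT, too, Id2 was no longer called lowered with the trend removed (-0.28, adjusted p = 0.29, limma).

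**Figure D4:**
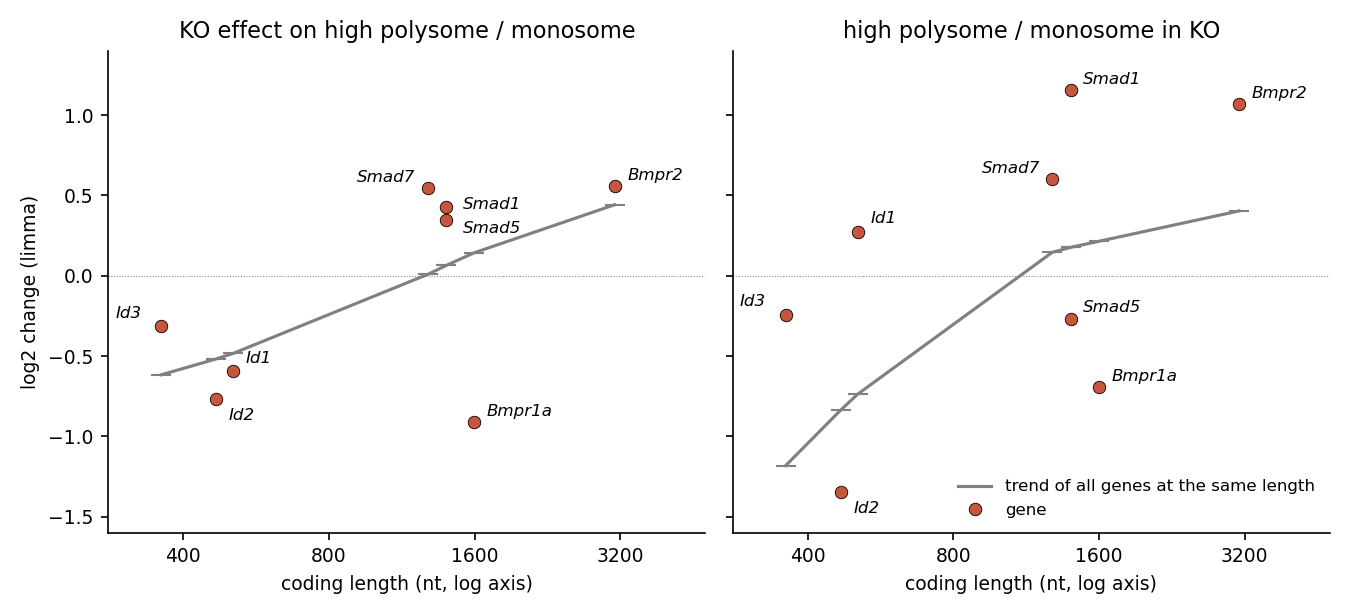
Measured log2 values (red points) of the 8 genes tested against coding length (nt, log axis), for the KO effect on the ratio of high polysome to monosome (left) and for that ratio in KO cells (right). Grey ticks joined by straight lines are the trend of all genes at the coding lengths of these genes. The 3 Id genes sit at the short end, where the trend is below 0, and in the left panel Bmpr1a lies at -0.91 where the trend is at 0.14.

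The changes can be seen against the rest of the pathway. A list of 76 genes of BMP signalling was used, of which 54 passed the filter, 46 of them other than the 8 genes above. Of those 46 genes, 17 rose and 14 fell in the mean of the fractions, which is 67.4% called beside 62.2% of all genes, with a median log2 change of 0.00. Within fractions, 10 rose and 4 fell in the monosome, 15 rose and 9 fell in the low polysome, and 14 rose and 10 fell in the high polysome. The shares called were close to those of all genes in the polysomes and lower in the monosome (30.4% beside 38.6%).

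By role, the secreted inhibitors and modulators had the highest median log2 change, at 0.77. Of 10 tested, 6 were raised and 2 lowered, where 30.6% and 31.5% of all genes were. The 10 include Tll1 and Bmp1, which passed the filter through KO libraries, so the filter favoured a rise in this median and count. Neither was recomputed without these genes. Fstl1, a secreted glycoprotein of the follistatin family, rose by 1.68 ± 0.10 (log2 change in the mean of the fractions, SE), and Chrd, the BMP antagonist chordin, rose by 1.14 ± 0.17. Tll1, a protease that cleaves chordin, is also counted among the raised genes and rose by 1.06 ± 0.37. Its WT libraries held 3 to 24 counts and at most 2.26 CPM. Tll1 therefore passed the filter only through KO libraries, and the filter favoured its rise. Follistatin (Fst, -1.02 ± 0.22) and Nbl1 (-0.60 ± 0.22), a DAN family antagonist, fell. Adjusted p ran from 2.2e-11 for Fstl1 to 0.024 for Nbl1 (limma). Among the raised genes named here, Chrd lowers and Tll1 releases BMP activity, the latter with the limit given above. Within single fractions, Bmp1, another chordin protease, rose in the high polysome (1.58 ± 0.42) and did not pass in the monosome (1.11 ± 0.56) or low polysome (0.21 ± 0.50). The WT group means of Bmp1 were 1.77 to 2.04 CPM, and it too passed the filter through KO libraries. The protease gene Htra1 rose in each fraction (0.67 ± 0.16, 1.37 ± 0.15 and 0.99 ± 0.15 from monosome to high polysome). Twsg1, which binds BMPs together with chordin, rose in the monosome (1.10 ± 0.24) and low polysome (0.58 ± 0.22).

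Of the 9 receptors and co-receptors tested, 4 rose and 2 fell in the mean of the fractions (66.7% called, beside 62.2% of all genes). The co-receptor Rgma rose by 1.16 ± 0.09 and endoglin (Eng) had a log2 change of -0.82 ± 0.13 (SE, adjusted p = 5.9e-10 and 1.3e-05, limma). Among 12 inhibitory SMADs, ubiquitin ligases and repressors, 3 rose (Smad7, Tob2 and Tob1) and 4 fell (Ski, Ppm1a, Fkbp1a and Ctdspl2), which is 58.3% called. Tob1, an antiproliferative protein that can repress SMAD signalling, rose in each fraction, by 0.99 ± 0.16, 1.24 ± 0.15 and 0.79 ± 0.14 from monosome to high polysome, and the phosphatase gene Ctdspl2 had a log2 change of -0.60 ± 0.09 in the mean of the fractions. Fkbp1a, which binds type I receptors and holds them inactive, fell in the low polysome (-0.50 ± 0.13) and the high polysome (-0.66 ± 0.13), and so did the SMAD phosphatase gene Ppm1a (-0.52 ± 0.13 and -0.42 ± 0.13). The 5 ligands tested were Bmp7, Bmp8a, Gdf3, Gdf11 and Gdf15, so this class is not made of BMPs alone. Of these, 1 rose and 2 fell (60% called). Of 3 receptor and common SMADs, 1 rose (Smad5, 33.3% called) and none fell, since Smad1 and Smad4 missed the threshold.

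Among the other transcriptional targets and cofactors, Gata2, a transcription factor of blood and trophoblast lineages, had the largest change of the whole list. It averaged 2.65 ± 0.74 CPM in the WT monosome and 40.4 ± 5.64 in the KO monosome (SD, n = 3 each), and its log2 change in the mean of the fractions was 3.92 ± 0.30 (SE, adjusted p = 6.7e-10, limma). Zfp423, a zinc-finger partner of SMADs, rose by 1.44 ± 0.16, and Msx1 (-0.74 ± 0.28) and Kdm6b (-0.42 ± 0.11) were lower. Msx1 averaged 3.54 ± 0.49 CPM in the WT high polysome (SD, n = 3), and its KO group means were 1.17 to 2.36 CPM. It passed the filter through the WT high polysome libraries, so the filter favoured its fall. Of 8 tested genes in this class, 3 rose and 2 fell, a share of 62.5% beside 62.2% of all genes. The lowered genes include Msx1, with the limit just given, and the count was not recomputed without it. The summed level of 5 trophectoderm markers was 15.5 to 22.1 CPM in WT and 25.0 to 67.9 CPM in KO, of which Gata3 and Krt7 passed the filter, and their part in the change of Gata2 was not tested.

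**Figure D5:**
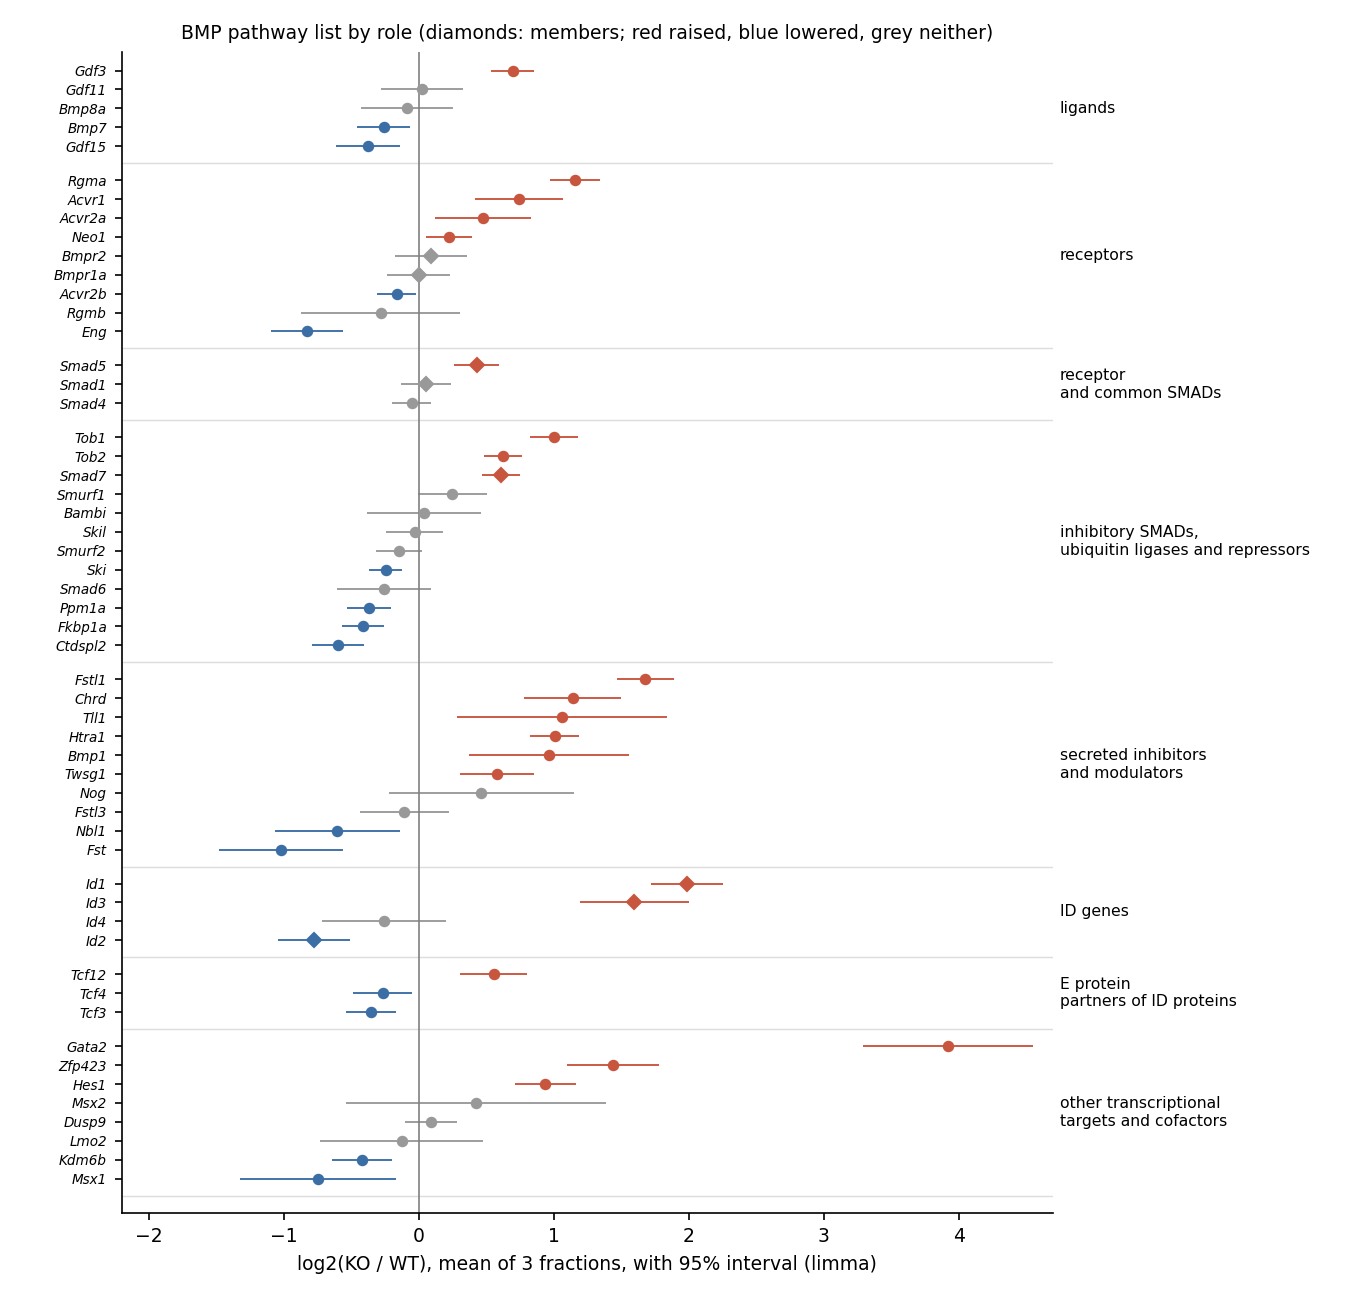
Log2 change of KO against WT in the mean of the 3 fractions, with 95% intervals from limma, for the 54 tested genes of the BMP list, grouped by role. Diamonds are the 8 genes described above, red passed as raised, blue as lowered and grey did not pass. Gata2 (3.92) stands apart, and within the Id genes Id1 and Id3 lie to the right of 0 and Id2 to the left.

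The genes whose profile over the 18 libraries was most like that of each Id gene were found by Pearson's r of log2 CPM. This is a description, since the libraries share genotype, fraction and gradient. For Id1 they were Bcl2l13 (r = 0.989), St8sia1 (0.983) and Dkk1 (0.980). For Id3 they were Cideb (0.921), Ifi27 (0.911) and Myl6 (0.906), and for Id2 they were Eprn (0.956), Gpr137b (0.952) and Ccni (0.945). Bmp4 followed Ccdc125 (0.862), Zfp354c (0.856) and Tbx1 (0.828), at counts of 2 to 19. The nearest gene was Fam3c for Bmpr1a (0.917), Gxylt1 for Bmpr2 (0.904), Tmem135 for Smad1 (0.975), Sipa1 for Smad5 (0.917) and Tnpo3 for Smad7 (0.936). Within the group itself, Id1 followed Smad7 (0.854) and Id3 (0.833) and ran against Id2 (-0.649), with the 18 libraries in 6 groups behind each value.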

How the data were processed

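The members and gene lists were chosen with earlier results of these data known. The authors prepared 3′ end libraries (QuantSeq 3′ FWD) and deposited raw counts per gene. Per the submitters' processing notes and the study's methods, reads were trimmed with cutadapt 1.14, mapped uniquely with STAR 2.5.3a to mm10, and counted by strand with featureCounts 1.5.3 on Gencode M14 without rRNA. No molecular identifiers are mentioned, so counts may include PCR copies. A 3′ end count does not scale with transcript length, and counts were not compared between genes as levels per length. The deposited table held 51467 genes and 92 spike-in sequences, which were left out of library totals (2543617 to 11474550 counts) and tests. Symbols and transcript features came from Gencode M21 on the same assembly, which matched 51274 of the identifiers.

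In R 4.3.3, edgeR 4.0.16 supplied TMM scaling, and voom and limma 3.58.1 were run on all 18 libraries with a mean for each of the 6 groups. The filter of 3 CPM in 3 libraries kept 12705 genes with 99.6% of the counts. Limma, the filter and the interaction follow the study's methods, and the scaling and joint fit were chosen here. Tests were two-sided, and the calling threshold was 0.05 on p-values adjusted by Benjamini-Hochberg across the 12705 genes. Ratios of single gradients used a pseudocount of 0.5 CPM. On simulated counts of 12705 genes, the fit recovered 94% of genes changed by 1 (log2) in the mean of the fractions. In the interaction of genotype with high polysome over monosome, it recovered 20% of those changed by 1 and 84% of those changed by 2. Only 50 genes were changed per size and comparison, where 62.2% and 17.8% of all genes were called in the data. The adjusted threshold was therefore stricter in the simulation, and these shares do not give the recovery in the data.

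Alternatives covered scaling (DESeq2 1.42.0 size factors, library size), no filter, edgeR and DESeq2 tests, fits to the compared groups, equal depth, each gradient left out, the coding length trend, and pseudocounts of 1 and 0.1 CPM. Fractions with the same replicate number within a genotype were taken as a single gradient. The study's methods describe collecting each sample's fractions from its gradient, and the labels do not name a lysate. Deviations of such fractions correlated at -0.17 to 0.46, with 6 of 18 pairs over 0.1. Between different gradients the highest correlation was 0.53, so these values do not show the pairing. A block on this number was an alternative fit. The labels give no batch or date.

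All 9 members were named in every comparison. Other genes of the list were named if past the threshold, at most 6 in each direction, by size of change, per KO against WT comparison and for the interaction on high polysome over monosome. The other genes named without values, as well as Id4 in the mean of the fractions, Smad4, Tob2 and Ski, were chosen after their values were seen. Protein identity between members was not analysed here.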

Additional observations from a re-analysis of the deposited data

Results flagged for a closer look

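The KO effect on the ratio of high polysome to monosome passed the test of the interaction (limma, adjusted p under 0.05) for 8 of the 54 tested genes of the BMP list, 14.8% beside 17.8% of all genes. Their log2 values were 1.24 for Chrd, 1.15 for Gdf11, 1.07 for Tob2, 0.55 for Smad7, -0.58 for Fkbp1a, -0.91 for Bmpr1a, -0.98 for Fstl1 and -1.03 for Twsg1. Tob2 had the smallest adjusted p of these (0.00039, limma), with means of 51.8 ± 3.92 CPM in the WT monosome, 47.0 ± 3.00 in the WT high polysome, 47.6 ± 2.15 in the KO monosome and 89.8 ± 7.12 in the KO high polysome (SD, n = 3 each). Chrd and Gdf11 rest on low levels, with group means of 2.32 to 10.7 CPM for Chrd and 2.74 to 9.26 CPM for Gdf11.

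In the interaction of low polysome over monosome, Tob2 (1.20) and Dusp9 (0.88), a phosphatase of MAP kinases, passed. In that of high over low polysome, Dusp9 passed in the other direction (-0.90). Dusp9 was chosen for mention after its value was seen. It averaged 27.2 ± 2.67 CPM in the WT low polysome and 44.1 ± 7.71 in the KO low polysome.

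Spike-in sequences, which the comparisons do not use, drew 28 to 169 counts per library. With 3 gradients per group, no test for single outlying libraries was made.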

How the results depend on the processing

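Over 17 alternative fits, 1582 values of the members kept their side of the threshold, 35 passed newly, 43 no longer passed and 4 reversed. Of the 1582, 61 changed sign between values that both missed the threshold. The reversed values were those of Id3 in KO with the coding length trend removed, 1.11 for high polysome over monosome and 1.03 for high over low polysome, and 1.10 and 1.03 with the replicate block as well. The block changed the call of Id2 in the interaction on high polysome over monosome (-0.76 as a fixed term, but not as an estimated correlation) and of Bmpr2 in WT low polysome over monosome, and no other call of a member in a fit without the trend removed. The cause of these changes was not tested.

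Counts over all genes depended on the processing mainly in the interactions. For high polysome over monosome, 1357 genes rose and 901 fell. The raised count was 740 at equal depth, 531 with the coding length trend removed and 698 with the trend removed in the block fit, and 466 to 1500 with 1 gradient left out. The lowered count was 1386 with library size alone, 1375 in DESeq2, 1744 with the compared groups only, 218 and 288 with the trend removed without and with the block, and 276 to 1116 with 1 gradient left out. The share of raised genes among those called was 60.1%, and 40.3% with library size alone, which moved the median of all genes to -0.10.

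For low polysome over monosome, 294 rose and 304 fell. The raised count was 553 in DESeq2, 162 with the compared groups only, 161 at equal depth, and 21 to 482 with 1 gradient left out. The lowered count was 494 with library size alone, 534 in DESeq2, 125 with the compared groups only, 14 and 32 with the trend removed without and with the block, and 6 to 335 with 1 gradient left out. The raised share was 49.2%, and 31.7% with library size alone.

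For high over low polysome, 431 rose and 131 fell. The raised count was 208 with no filter, 167 with the compared groups only, 147 at equal depth, 20 and 23 with the trend removed, and 0 to 493 with 1 gradient left out. The lowered count was 205 with DESeq2 size factors, 212 with library size alone, 489 in DESeq2, 30 with the compared groups only, 215 with the block as an estimated correlation, 38 and 32 with the trend removed, and 0 to 313 with 1 gradient left out. Both counts of 0 were limma's without KO gradient 3, where 1030 and 566 genes had an unadjusted p under 0.05, and edgeR and DESeq2 were not run without it. The raised share was 76.7%, 60.7% with DESeq2 size factors and 60.3% with library size alone.

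Elsewhere, the no-filter fit gave 3929 lowered genes for KO against WT in the monosome (2548 with the filter) and 10866 for WT high polysome over monosome (4086). With the trend removed, 2803 genes were lowered for KO high polysome over monosome (4266), 1940 for KO high over low polysome (3563, and 2112 with the block), and 2680 for WT high over low polysome with the block (4144). For KO low polysome over monosome, 1612 to 2589 genes rose with 1 gradient left out (2590 with all).

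Depth limited Bmp4 (2 to 19 counts per library) and Id1 in the WT monosome (8 to 21). Counts give no absolute mRNA level per cell.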

Other observations

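The E proteins, which ID proteins bind, were measured beside the Id genes. In the mean of the fractions Tcf12 rose (0.56 ± 0.12) and Tcf3 (-0.35 ± 0.09) and Tcf4 (-0.27 ± 0.11) were lowered (log2 change, SE), so all 3 were called (limma), in different directions, where 62.2% of all genes were called. Tcf12 was chosen for mention after its value was seen.

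Of the 76 listed genes, 22 did not pass the filter. Bmp5 and Cer1 had no count in any library, and the type I receptor Bmpr1b had at most 2 counts in a library. Of the other ligands below the filter, Bmp8b reached 57 counts (6.35 CPM) and Bmp2 34 counts (2.98 CPM). Bmp7, with group means of 27.8 to 47.1 CPM, was therefore among the better counted BMP ligands, and Gdf3, a related ligand of pluripotent cells, averaged 181 to 633 CPM. Gdf3 rose (0.70 ± 0.08) and Bmp7 was lowered (-0.26 ± 0.09) in the mean of the fractions (log2 change, SE, limma). These ligands were named after their values were seen.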
